A study of Mus musculus with 2 samples.

Results

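Transcripts of 9 myelin genes (Mbp, Mog, Mag, Mobp, Mal, Cnp, Cldn11, Opalin and Ermn) were described in coronal brain sections after controlled cortical impact (CCI), an open-skull injury made with a piston. The 9 were chosen by symbol, out of the 19070 genes in the count tables, as known components of myelin or of the oligodendrocytes that make it. Both sections came from male C57Bl6 mice (C57BL/6J in the methods of the study) that were 3 months old at the impact, the first collected 3 days and the second 28 days after CCI over the right parietal lobe, under ketamine and medetomidine anaesthesia with buprenorphine and local bupivacaine. The mice were otherwise untreated, and no section of a sham-operated mouse was analysed here. RNA was measured with Visium HD, in which gene probes hybridised to the fixed section are captured on a grid and counted as unique molecular identifiers (UMIs) in squares of 16 µm, called bins, each of which can hold parts of several cells.

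Each group was 1 section of 1 mouse, so no difference between the time points could be tested, and comparisons were made between the sides of the same section. The intervals given are 95% intervals that cover counting error only. Neighbouring bins are not independent, and the spread between animals is unknown. A probe set weighs genes unequally, so levels of different genes were not ranked against each other.

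Myelin is the lipid-rich sheath that oligodendrocytes wrap around axons, and it is densest in the white matter tracts. Some of its proteins hold the membrane layers together, others line the inner and outer surfaces that face the axon and the surroundings, and others form the junctions that seal the layers. White matter under an injured cortex is known to lose myelin and to fill with phagocytes that take up myelin debris.

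The 3 days section held 121967 bins with 120615873 UMIs (median 836 per bin), and the 28 days section held 105589 bins with 82422389 UMIs (median 596). The 9 genes made up 0.389% of all UMIs at 3 days and 0.386% at 28 days. White matter was placed without them, by 7 other oligodendrocyte genes, among them Trf, Gjc3, Tspan2, Qdpr, Plekhb1 and Car2, as the bins at or above the summed share reached by the top 10% of bins of the opposite side. Grey matter was the tissue below the opposite side's median share, and the rest was called intermediate. The same limits held on both sides, so tissue that lost the placement transcripts drops out of white matter. Levels within white matter leave such tissue out, and the effect of this on the ratios was not tested. The injured side lay below array column 130 at 3 days and 240 at 28 days, and the lesion zone was the patch of the injured side that was rich in 6 phagocyte genes. It covered 1.94 mm² at 3 days and 3.57 mm² at 28 days. The array caught only 2.08 mm of the width of the injured side at 3 days, against 3.84 mm at 28 days, so the lateral part of that side is missing at 3 days.

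**Figure D1:**
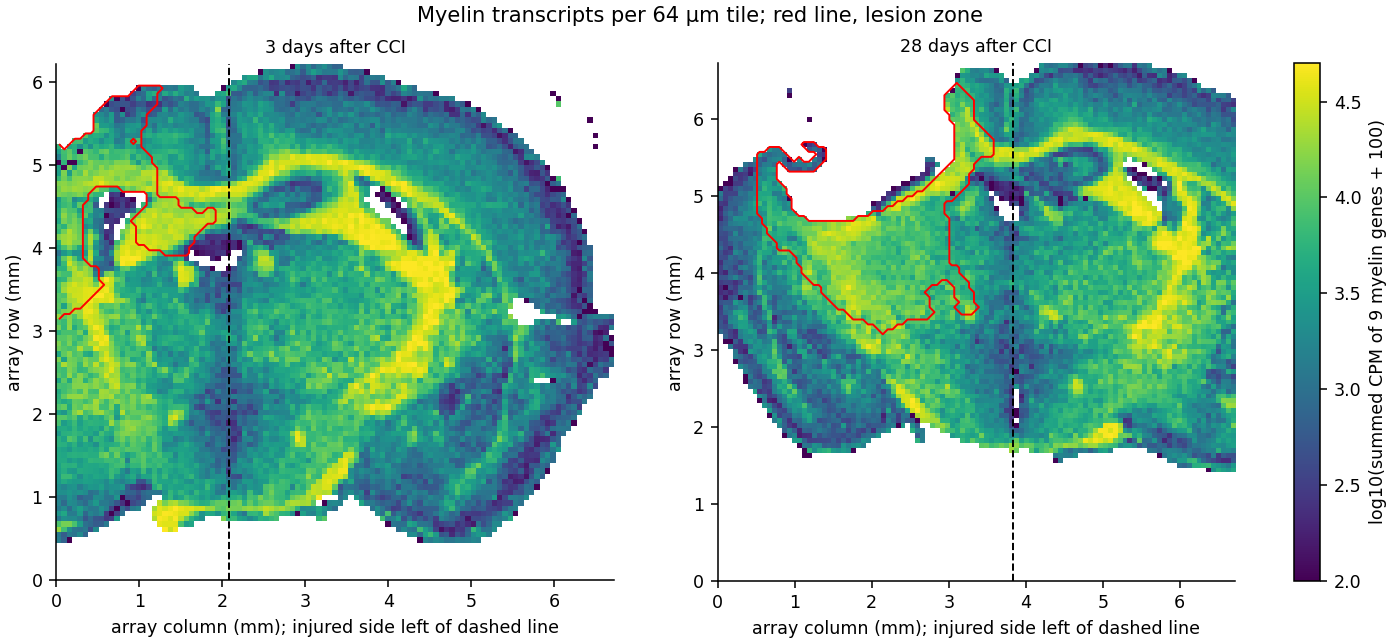
Summed CPM (UMIs of a gene relative to all UMIs of the region, on a fixed scale) of the 9 myelin genes in tiles of 64 µm, on a log10 scale with 100 added, over array columns and rows in mm. The corpus callosum and the deep tracts stand out, the dashed line separates the injured side on the left, and the red line encloses the lesion zone of 1.94 mm² at 3 days and 3.57 mm² at 28 days, where tissue is missing above the zone.

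The labelled tissue, brain, fitted the markers. On the opposite side, the 6 neuronal genes summed to 7969 CPM in grey matter and 1115 CPM in white matter at 3 days, and to 8265 and 962 CPM at 28 days. All 9 myelin genes were far higher in white than in grey matter there, by 25.8-fold for Cnp to 58.6-fold for Ermn at 3 days and by 21.1-fold for Cnp to 34.4-fold for Cldn11 at 28 days. On the injured side this contrast ran from 13.6-fold (Cnp) to 42.1-fold (Cldn11) at 3 days and from 16.1-fold (Cnp) to 32.2-fold (Cldn11) at 28 days. Schwann cell genes, which mark myelin of peripheral nerve, were near absent from white matter. Their 5 genes summed at 3 days to 4.89 CPM in injured and 5.71 CPM in opposite white matter. At 28 days they summed to 8.91 CPM opposite the injury and had 0 UMIs together on the injured side, which allows up to 5.4 CPM.

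At 3 days, most myelin genes made up less of the RNA of white matter on the injured side than on the opposite side, while more of their UMIs were counted per bin. In CPM, 8 of the 9 genes were lower, with a median log2 ratio of -0.42 against 0.03 for all 12335 genes with enough UMIs. Counted per bin, 0 of the 9 were lower and the median was 0.29, but the median over all genes was then 0.74, because white matter bins of the injured side held 428 UMIs on average and those of the opposite side 261. On either scale the median of the 9 lay below that of all genes, while Cldn11, at 0.10 in CPM and 0.81 per bin, lay above it. In CPM, 2 of 9 were at least 1.5-fold lower, a change that 6.46% of all genes reached, and none was 1.5-fold higher, as 13.6% of all genes were. Of the placement genes, Trf was itself higher on the injured side (8598 against 4658 CPM), and with white matter placed without Trf and Car2 the median was -0.21. It was -0.19 in the white matter outside the lesion zone, and -1.64 when white matter of the injured side was placed by reflecting that of the opposite side. The reflected bins held 732 UMIs on average, and whether they lay on other tissue was not tested.

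Among the proteins of compact myelin, Mbp, whose product binds the inner faces of the membrane together, had 8708 CPM in injured and 12254 CPM in opposite white matter (26690 and 25762 UMIs), a log2 ratio of -0.49 (-0.52 to -0.47). Mobp, a second small basic protein of the compact sheath, had 6504 and 8711 CPM, a log2 ratio of -0.42 (-0.45 to -0.39). Mal, a proteolipid that takes part in the transport of membrane to the sheath, had 1401 and 2174 CPM, a log2 ratio of -0.63 (-0.69 to -0.57). All 3 were lower on the injured side in CPM by more than counting error, and all 3 were higher there per bin, by 0.22, 0.29 and 0.08 on the log2 scale.

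Of the genes of the surfaces and of non-compact myelin, Mag, an adhesion protein of the inner layer that faces the axon, had 2035 CPM on the injured and 2102 CPM on the opposite side. Its log2 ratio of -0.05 (-0.10 to 0.01) did not differ from 0 beyond counting error. Mog, a surface protein of the outermost layer, had 807 and 968 CPM, a log2 ratio of -0.26 (-0.35 to -0.18). Cnp, an enzyme of the cytoplasm-filled channels of the sheath, had 1276 and 1675 CPM, a log2 ratio of -0.39 (-0.46 to -0.33). In CPM, Mag was the least changed of these 3, whereas per bin it had the highest ratio, at 0.66 against 0.45 for Mog and 0.32 for Cnp.

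Opalin, a membrane glycoprotein of mature oligodendrocytes, had 255 CPM on the injured and 394 CPM on the opposite side, a log2 ratio of -0.63 (-0.77 to -0.49). Ermn, a cytoskeletal protein of myelinating cells, had 704 and 964 CPM, a log2 ratio of -0.45 (-0.54 to -0.37). Cldn11, a claudin that forms the tight junctions between the layers of the sheath, stood apart from the rest. It had 4026 CPM on the injured and 3750 CPM on the opposite side, a log2 ratio of 0.10 (0.06 to 0.14).

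Within a side, white matter varied more than the sides differed. Over blocks of 512 µm with at least 50 white matter bins, Mbp ranged from 5682 to 14670 CPM in 22 blocks of the injured side (median 10560) and from 4422 to 17454 CPM in 28 blocks of the opposite side (median 12640). Opalin ranged from 84.7 to 669 CPM (median 282) and from 46.1 to 701 CPM (median 362). Cldn11 ranged from 1948 to 6313 CPM (median 3338) and from 2090 to 6036 CPM (median 3066). The blocks of both sides overlapped for every gene in this section, and the blocks hold different tracts on each side.

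In the white matter inside the lesion zone at 3 days, the decrease in CPM was deeper. There 5 of 9 genes were at least 1.5-fold lower than in white matter of the opposite side, against 13.0% of all genes, and none was 1.5-fold higher, against 17.3%. Opalin fell to 186 CPM, a log2 ratio of -1.08 (-1.28 to -0.90), and Mal to 1137 CPM, a ratio of -0.93 (-1.01 to -0.86). Mbp (7620 CPM, -0.69), Mobp (5721 CPM, -0.61) and Cnp (1101 CPM, -0.60) followed, then Ermn (-0.55) and Mog (-0.38). Mag (-0.07) and Cldn11 (0.09) again lay near 0, but were at -0.30 and -0.14 against white matter of the opposite area that mirrors the zone. The axis of reflection lay 320 µm from the side boundary at 3 days, so areas mirrored in that section may lie on other tissue, and values set against them carry that limit. Per bin, where the median gene was 0.93 higher, Opalin (-0.18) and Mal (-0.03) were the members below 0. White matter of the zone was placed with Trf among its genes, and its values were not recomputed without Trf and Car2.

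**Figure D2:**
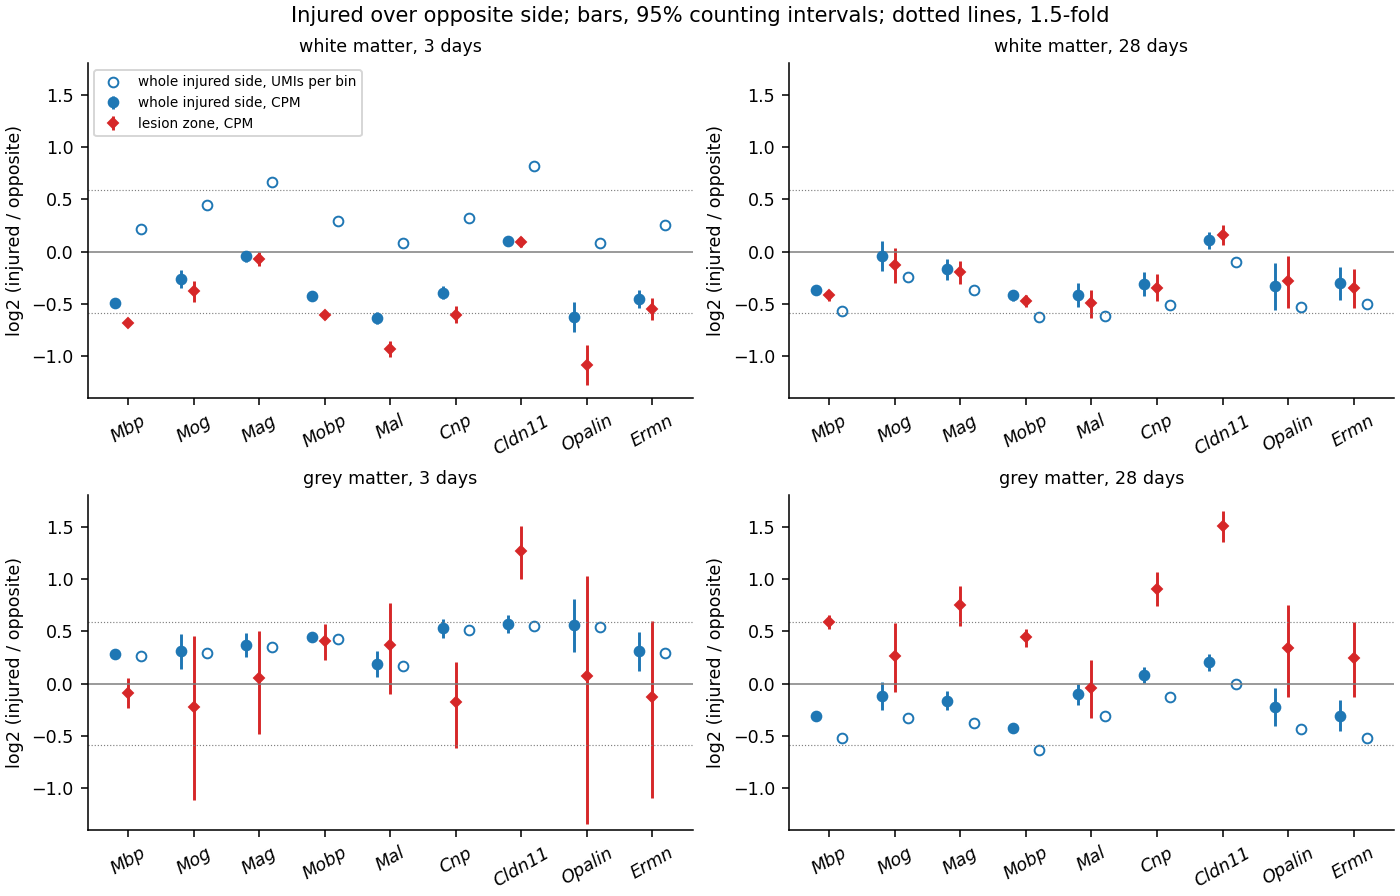
Log2 ratio of the injured over the opposite side for each gene in white matter (top) and grey matter (bottom). Filled circles give CPM over the whole injured side, red diamonds CPM in the lesion zone, both with 95% counting intervals, and open circles UMIs per bin over the whole side. In 3 days white matter 8 of 9 filled circles lie below 0 and all open circles above it, whereas in 28 days white matter all open circles lie below 0.

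The proportions among the 9 genes do not depend on how a bin is scaled, and they shifted in the same tissue. In white matter at 3 days, Cldn11 took 11.4% (11.1 to 11.6) of the UMIs of the 9 genes on the opposite side, 15.7% (15.4 to 15.9) on the injured side and 17.2% (16.9 to 17.6) in the lesion zone. Mag took 6.37%, 7.91% and 8.63%. Mbp went the other way, from 37.1% to 33.9% and 32.9%, as did Mal (6.59%, 5.45% and 4.91%) and Opalin (1.19%, 0.991% and 0.802%). In the mirrored area of the opposite side, Cldn11 took 11.8% and Mag 6.62%, close to the values of that whole side. At 28 days the share of Cldn11 was 7.65% (7.41 to 7.89) on the opposite side, 10.2% (9.76 to 10.7) on the injured side and 10.9% (10.3 to 11.5) in the zone, whereas the share of Opalin was 1.42%, 1.40% and 1.48%. Mag took 6.35%, 7.02% and 7.07% at 28 days. The rise in the share of Cldn11 was thus present in both sections, and a fall in the share of Opalin was seen in the 3 days section. The difference between the sections could not be tested.

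**Figure D3:**
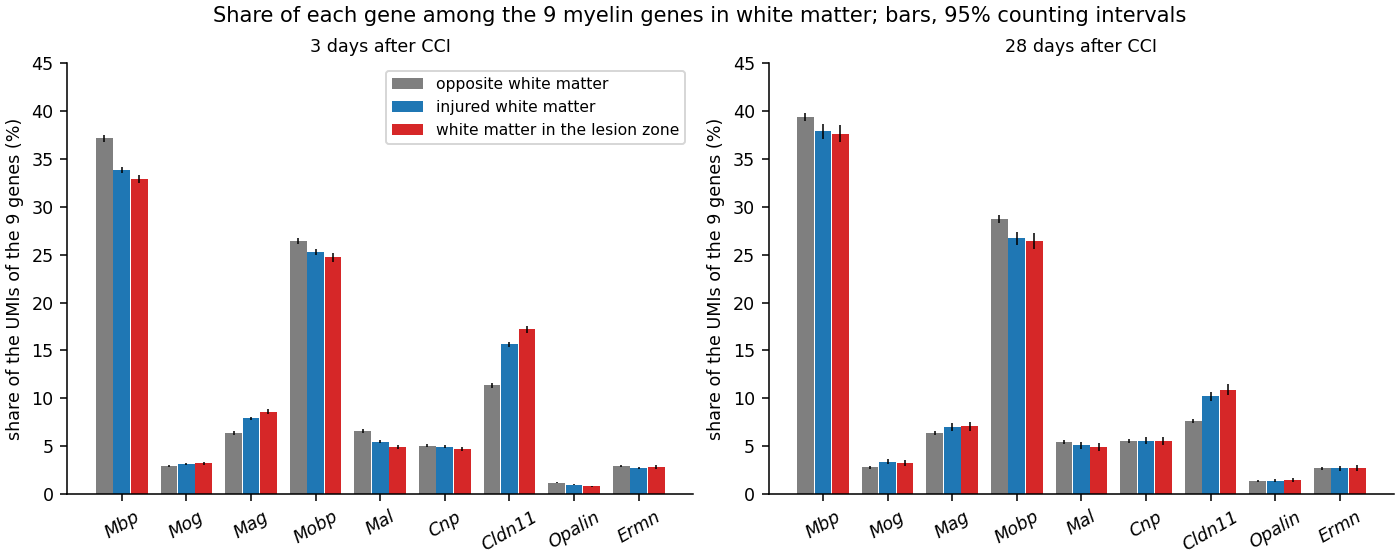
Share (%) of each gene among the UMIs of the 9 myelin genes in white matter of the opposite side (grey), of the injured side (blue) and of the lesion zone (red), with 95% counting intervals. Cldn11 rises from 11.4% to 17.2% between the grey and the red bar at 3 days and from 7.65% to 10.9% at 28 days, while Mbp falls from 37.1% to 32.9% at 3 days.

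At 28 days a smaller share of bins was placed as white matter on the injured than on the opposite side. In that white matter most myelin genes had lower levels than opposite the injury. White matter took 2552 of the injured side's bins (5.16%) against 5384 on the opposite side, where the threshold sets the share to 10%. At 3 days it took 7169 bins of the injured side (18.3%), in a captured strip that lies close to the midline. Trf, one of the placement genes, was higher on that side at 3 days, and extents placed without it are not given. By distance from the zone at 28 days, white matter took 4.52% of bins up to 250 µm, against 13.4% in the mirrored area of the opposite side, 0.468% against 7.84% from 250 to 500 µm, 1.31% against 3.5% from 500 to 1000 µm and 1.49% against 2.84% from 1000 to 2000 µm. These shares rest on the placement genes, so tissue that lost those transcripts is not counted as white matter, and cortex and callosum that were missing from the section cannot be counted at all.

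In this white matter of the injured side, 8 of 9 genes were lower in CPM, with a median log2 ratio of -0.31 against -0.0026 for all 10383 genes. Per bin all 9 were lower, with a median of -0.51 against -0.20 for all genes. No gene passed 1.5-fold in CPM, while 9.77% of all genes were at least that much lower and 10.6% higher. With white matter of the injured side placed by reflection the median was -1.65, with ratios from -1.98 (Ermn) to -1.35 (Cldn11). The reflected bins held 434 UMIs on average, against 218 in white matter placed by its own transcripts. Up to 250 µm from the zone these means were 713 and 203, and Mbp was at -2.91 by reflection, against -0.29. In the zone Mbp was at -0.99 by reflection, against -0.42. Whether the reflected bins lay on other tissue was not tested. Mbp had 10736 CPM on the injured and 13872 CPM on the opposite side, a log2 ratio of -0.37 (-0.41 to -0.33). Mobp had 7570 and 10128 CPM, a ratio of -0.42 (-0.47 to -0.37), and Mal 1439 and 1919 CPM, a ratio of -0.41 (-0.53 to -0.30). These genes of compact myelin had the lowest values of the list, although their intervals overlapped those of Opalin, Cnp and Ermn.

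Opalin had 396 and 499 CPM at 28 days, a log2 ratio of -0.33 (-0.56 to -0.11), Cnp 1575 and 1950 CPM, a ratio of -0.31 (-0.42 to -0.20), and Ermn 766 and 946 CPM, a ratio of -0.30 (-0.47 to -0.15). Mag had 1989 and 2239 CPM, a ratio of -0.17 (-0.27 to -0.07), and Mog 962 and 990 CPM, a ratio of -0.04 (-0.19 to 0.10), which did not differ from 0 beyond counting error. Cldn11, with 2899 and 2694 CPM, was again the only member above 0 in CPM, at 0.11 (0.02 to 0.19), although it was at -0.10 per bin, and in CPM at -0.06 outside the lesion zone and -0.03 with the top 20% of bins as white matter. Inside the zone 0 of 9 genes passed 1.5-fold in either direction, against 12.8% of all genes lower and 12.1% higher. The ratios ran from -0.50 (Mal) to 0.16 (Cldn11). White matter made up 13.1% of the zone's bins and intermediate tissue 72.3%.

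Blocks of white matter overlapped between the sides at 28 days as well. Mbp ranged from 9138 to 14356 CPM in 15 blocks of the injured side (median 11120) and from 9202 to 17574 CPM in 23 blocks of the opposite side (median 13552). Mobp ranged from 6291 to 10311 CPM (median 7863) and from 7456 to 12199 CPM (median 9518).

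By distance, the median ratio of white matter at 3 days was lowest in the zone and close to 0 from 250 to 500 µm. It was -0.60 in the zone, -0.25 up to 250 µm and -0.02 from 250 to 500 µm. Farther out it was -0.46 from 500 to 1000 µm, -0.28 from 1000 to 2000 µm and -0.03 beyond, in bands of 255 to 446 white matter bins. While 6 genes were lowest in the zone, the other 3 were lowest from 500 to 1000 µm. Cldn11 was at 0.09 in the zone, 0.35 up to 250 µm and -0.74 from 500 to 1000 µm, Mag at -0.07, 0.10 and -0.46, and Ermn at -0.55, -0.32 and -0.63. Measured against the mirrored band, the medians were -0.78, -0.29 and 0.04 for the zone and the first 2 bands, and -0.13, -0.09 and 0.20 for the bands farther out. At 28 days enough white matter for a comparison was found only in the zone (median -0.34) and up to 250 µm from it (-0.29).

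**Figure D4:**
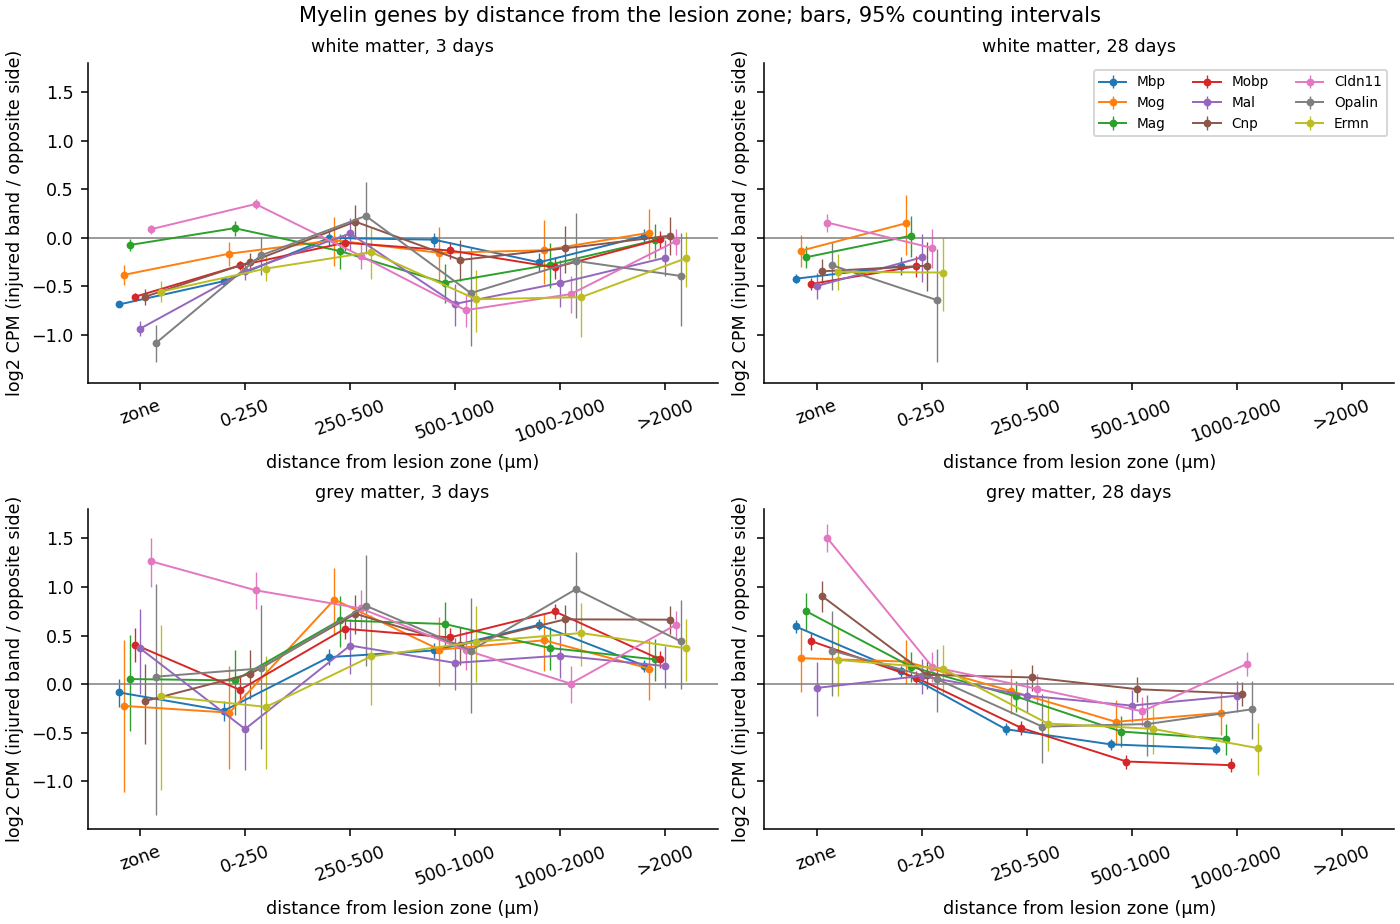
Log2 ratio of CPM in each distance band of the injured side over the same tissue of the whole opposite side, for each of the 9 genes, with 95% counting intervals. In 3 days white matter the median runs from -0.60 in the zone to -0.02 at 250 to 500 µm, and in 28 days grey matter from 0.44 in the zone to -0.41 at 500 to 1000 µm, with Cldn11 the highest line in the zone of both grey matter panels.

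Grey matter, placed by a low share of the placement genes, gave opposite directions at 3 and 28 days. Any tissue poor in those genes falls in this class, and no neuronal gene placed it. At 3 days all 9 genes were higher on the injured side, in CPM (median log2 ratio 0.37, against 0.16 for all 14905 genes) and per bin (0.35, against 0.14). None was 1.5-fold higher or lower, as 22.5% and 5.43% of all genes were. When grey matter of the injured side was instead placed by reflecting that of the opposite side, the median was 2.37, with ratios from 1.57 (Mbp) to 2.68 (Cldn11). At 28 days 7 of 9 were lower in CPM (median -0.16, against 0.05 for all 14716 genes) and all 9 per bin (median -0.38, against -0.16). None passed 1.5-fold, as 1.99% of all genes did downwards and 12.7% upwards. By reflection the median was 1.05 at 28 days, so the size depended on the placement at both times and the direction at 28 days.

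Mobp showed the widest swing. It had 325 CPM in grey matter of the injured and 239 CPM of the opposite side at 3 days, which gives 0.44 (0.40 to 0.49), and 322 and 431 CPM at 28 days, which gives -0.42 (-0.46 to -0.38). Mbp had 564 and 465 CPM at 3 days (0.28) and 517 and 642 CPM at 28 days (-0.31). Opalin had 11.7 and 7.95 CPM at 3 days (0.56) and 16.3 and 19.0 CPM at 28 days (-0.22), and Ermn 20.4 and 16.4 CPM (0.31), then 24.5 and 30.3 CPM (-0.31). Cldn11 was higher on the injured side both times, at 0.57 (0.48 to 0.66) and 0.20 (0.12 to 0.29) in CPM, but at -0.01 per bin at 28 days, and Cnp was at 0.53 and 0.08 (0.01 to 0.16) in CPM but at -0.13 per bin at 28 days. The array caught different widths of the injured side in the 2 sections. The 3 days grey matter there held more of the choroid plexus genes, at summed levels of 5857 against 292 CPM. Of these, 4 of 4 were at least 1.5-fold higher, against 22.5% of all genes. At 28 days these 4 genes were again at least 1.5-fold higher, against 12.7% of all genes, at 6206 against 2832 CPM. Their part in the result was not tested.

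At 28 days the median grey matter ratio was highest in the zone and lowest from 500 to 1000 µm. It was 0.44 in the zone, 0.13 up to 250 µm, -0.13 from 250 to 500 µm, -0.41 from 500 to 1000 µm and -0.30 from 1000 to 2000 µm. Against the mirrored bands it was -0.07, -0.01, -0.16, -0.35 and -0.14, so the high median in the zone was not seen against the matching area. Mobp went from 0.44 in the zone to -0.80 and -0.84 in the 2 farthest bands, and to -0.60 and -0.44 against their mirrored bands. At 3 days the median was 0.05 in the zone and -0.06 up to 250 µm, then between 0.26 and 0.66 in the 4 bands farther out. Against the mirrored bands it was -0.38 in the zone and -0.46 up to 250 µm, then between 0.25 and 0.63.

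Cldn11 was the member that stood highest in the grey matter of the lesion zone. That class holds any zone tissue poor in the placement genes, and whether it was cortical tissue was not tested. At 3 days Cldn11 had 154 CPM in this class and 64.4 CPM in grey matter of the opposite side (138 and 3518 UMIs). The log2 ratio was 1.27 (1.004 to 1.51). Cldn11 was the only 1 of 9 genes at least 1.5-fold higher, against 32.1% of all genes. None was 1.5-fold lower, against 17.2% of all genes, and the other 8 ranged from -0.23 (Mog) to 0.41 (Mobp). Against the mirrored area Cldn11 was at 1.19 (0.85 to 1.53) and again the only 1 at least 1.5-fold higher, against 28.7% of all genes, whereas Mog (-0.88), Mbp (-0.87) and Mag (-0.62) were at least 1.5-fold lower, as 18.3% of all genes were. Per bin, where grey matter of the zone held 679 UMIs and that of the opposite side 1357, Cldn11 was at 0.27 and the other 8 genes were below 0. At 28 days the ratio of Cldn11 was 1.505 (1.35 to 1.65), from 222 and 78.3 CPM. Cnp (0.91), Mag (0.75) and Mbp (0.59) were also at least 1.5-fold higher, making 4 of 9 against 27.1% of all genes, and none was lower, against 18.8%. Against the mirrored area Cldn11 (1.24) and Cnp (0.66) were at least 1.5-fold higher, as 27.6% of all genes were, while Mag was at 0.28 and Mbp at -0.07. None was 1.5-fold lower than in the mirrored area, against 18.4%.

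Cldn11 is also known from the barrier cells of the meninges, and genes of meningeal fibroblasts moved with it. Of the 5 listed, 4 at 3 days and 5 at 28 days were at least 1.5-fold higher in the grey matter of the zone, against 32.1% and 27.1% of all genes, and their summed levels were 976 against 123 CPM and 1263 against 135 CPM. In grey matter bins with no UMI of these 5 genes within 3 by 3 bins, Cldn11 at 3 days still had 139 CPM in the zone and 54.7 CPM opposite it (69 and 2494 UMIs), which gives 1.36 (0.98 to 1.70). At 28 days it had 184 and 72.6 CPM there, a ratio of 1.34 (1.12 to 1.55). In bins with such a UMI nearby, it came to 0.61 (0.22 to 0.95) at 3 days and 1.32 (1.10 to 1.54) at 28 days. Bins are shallow, so the lack of such a UMI does not show that these cells were absent, and their part in the ratio was not tested. In white matter of the zone the ratios were 0.08 without and 0.12 with such a UMI at 3 days, and 0.15 and 0.18 at 28 days. In the grey matter bins without such a UMI, the other 8 genes ran at 3 days from -0.65 (Mog) to 0.87 (0.67 to 1.06, Mobp), and the intervals of Mobp, Opalin and Ermn overlapped that of Cldn11. At 28 days they ran from 0.34 (Mal) to 1.09 (Cnp). The intervals of Cnp (0.88 to 1.30) and Mag (0.85 to 1.31) then overlapped that of Cldn11.

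Over all its tissue, the lesion zone held more of the myelin transcripts in CPM than the whole opposite side at both times, but at 28 days their median ratio was near 0 against the area that mirrors it. At 3 days all 9 genes were at least 1.5-fold higher in the zone than over the opposite side, against 31.6% of all genes higher and 19.4% lower, with log2 ratios from 1.55 (Opalin) to 2.78 (Cldn11). White matter, placed with Trf among its genes, made up 46.6% of the zone and 10% of the opposite side. Against the mirrored area, of which 36.3% was white matter, the median was 0.51, not 1.85, and the ratios ran from 0.22 (Mal) to 1.34 (Cldn11). At 28 days 8 of 9 genes were at least 1.5-fold higher, against 25.9% of all genes higher and 20% lower, with a median of 1.01 that became 0.02 against the mirrored area, with Mal at -0.37 and Cldn11 at 0.53. White matter then made up 13.1% of the zone and 19.4% of the mirrored area.

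The 9 genes varied together across tissue. Over 63 regions of both sections, formed by side, tissue and distance band, each gene's log2 CPM correlated with the mean of the members at a Pearson r of 0.988 (Cldn11) to 0.998 (Ermn). The regions share their libraries and span white and grey matter, and the members are part of the mean. Of the 12841 genes compared, the 5 that followed most closely besides the members and the placement genes were Ugt8a (0.996), which makes the galactolipids of myelin, Ppp1r14a (0.995), Tmem88b (0.995), Pllp (0.995), a membrane proteolipid of the sheath, and Gatm (0.993), an enzyme of creatine synthesis. Cldn11 ranked 28th of all genes in this likeness, behind genes that are no members. The placement genes named above ran from 0.967 (Trf) to 0.994 (Gjc3).

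The stretches of DNA just upstream of the start sites are shown for some members only. They are Mobp, with the widest swing in grey matter, and Opalin, with the deepest fall in white matter of the 3 days lesion zone. Cnp, with white matter changes close to the median, and Cldn11, which stood apart, are shown as well. RefSeq promoters of build GRCm38.p6 were held for 8 of the 9 genes, and the 250 bases before the start were searched on both strands for ACAAAG and ACAATG, cores bound by SOX factors, and CTGGTAC and CTGGCAC, cores bound by MYRF, both known regulators of myelin genes. Each is written 5′ to 3′ on the gene's strand, with matches of either strand in capitals.

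Mobp (chr9:120149492-120149741, plus strand): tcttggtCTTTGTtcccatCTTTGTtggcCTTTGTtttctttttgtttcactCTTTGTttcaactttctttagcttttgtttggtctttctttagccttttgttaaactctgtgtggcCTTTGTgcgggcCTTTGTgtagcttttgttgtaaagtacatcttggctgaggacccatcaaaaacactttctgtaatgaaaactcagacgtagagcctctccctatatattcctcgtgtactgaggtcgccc
Opalin (chr19:41077114-41077363, minus strand): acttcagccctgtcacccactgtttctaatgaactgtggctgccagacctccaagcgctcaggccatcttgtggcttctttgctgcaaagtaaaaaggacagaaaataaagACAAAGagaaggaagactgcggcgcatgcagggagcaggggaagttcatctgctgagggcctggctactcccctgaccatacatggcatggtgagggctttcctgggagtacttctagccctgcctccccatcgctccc
Cnp (chr11:100574689-100574938, plus strand): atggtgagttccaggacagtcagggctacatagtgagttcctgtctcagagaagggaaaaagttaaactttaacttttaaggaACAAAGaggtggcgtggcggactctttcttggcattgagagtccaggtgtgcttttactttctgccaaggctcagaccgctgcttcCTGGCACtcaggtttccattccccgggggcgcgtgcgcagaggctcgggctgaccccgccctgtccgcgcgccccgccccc
Cldn11 (chr3:31149670-31149919, plus strand): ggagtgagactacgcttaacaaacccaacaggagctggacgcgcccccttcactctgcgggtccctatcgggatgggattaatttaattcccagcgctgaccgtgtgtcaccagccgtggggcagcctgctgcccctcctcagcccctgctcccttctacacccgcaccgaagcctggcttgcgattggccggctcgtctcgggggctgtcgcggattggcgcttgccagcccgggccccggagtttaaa

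ACAAAG was found upstream of 4 of the 8 genes (Mag, Mobp, Cnp and Opalin) and in 16.5% of all 32851 promoters of the same length. The 8 genes had 10 such windows, several of them for Mag. A gene counted with a match in any of its windows, whereas the shares of all promoters are per window. The stretch of Mobp held 6 matches, none of which overlapped another. ACAATG was found for Ermn alone (10.7% of all promoters), CTGGTAC for Mog alone (1.83%) and CTGGCAC for Mag and Cnp (4.19%). Mal and Cldn11 held none of the 4 cores in these windows. Mal, which is not shown, had the next deepest fall after Opalin in white matter of the 3 days zone. A link between the cores and the changes was not tested.

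Most other genes of oligodendrocytes stayed within 1.5-fold in white matter. Of all genes in this tissue, 6.46% were at least 1.5-fold lower and 13.6% higher at 3 days, and 9.77% and 10.6% at 28 days. Of 7 genes of myelin lipid synthesis, 1 was at least 1.5-fold lower on the injured side at 3 days (Aspa, 171 against 295 CPM) and none higher, with a median of -0.16, and at 28 days none passed in either direction (median -0.21, with Ugt8a at -0.33). Of 7 genes of the paranode, junctions and membrane, none passed at 3 days (median -0.16), and 1, the tetraspanin Cd9, was higher at 28 days (1349 against 815 CPM, median -0.11). None of 7 transcription factors passed at either time, with medians of -0.20 and -0.04. Myrf, which drives myelin gene expression, was at -0.06 at 3 days and -0.04 at 28 days. Of 10 genes of mature oligodendrocytes, 1 was lower and 2 (Apod and Gsn) were higher at 3 days (median -0.30), and none passed at 28 days (median -0.15).

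Several genes of the reactive oligodendrocyte list were higher on the injured side at both times, and those of the precursor list at 3 days. Bins mix cells, so the cells that held these transcripts were not told apart. Of 7 genes of reactive oligodendrocytes, 4 were at least 1.5-fold higher in white matter at 3 days (median 0.71, against 13.6% of all genes) and 3 at 28 days (0.44, against 10.6%). Serpina3n, a protease inhibitor, had 1715 against 595 CPM at 3 days and 814 against 148 CPM at 28 days, and the protease Klk6 had 627 against 215 CPM and 220 against 134 CPM. All 4 genes of oligodendrocyte precursors passed 1.5-fold upwards at 3 days (median 0.70, with Vcan at 0.91), again against 13.6% of all genes, and 1, Cspg4, at 28 days (median 0.14, against 10.6%), where its interval of -0.34 to 1.92 held 0. Of 7 genes of newly formed oligodendrocytes, 1 was higher at 3 days, against 13.6% of all genes (median 0.23). It was Gpr17 (106 against 65.6 CPM), which is also in the precursor list. None of the 6 with enough UMIs passed at 28 days (median 0.09).

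Other cell types moved in the same white matter. All 5 genes of microglia and macrophages were at least 1.5-fold higher on the injured side at both times, against 13.6% and 10.6% of all genes, and summed to 1755 against 1004 CPM at 3 days and 2933 against 983 CPM at 28 days. Of 4 astrocyte genes, 1 was higher (Gfap, 3881 against 2029 CPM) and 1 lower (Aldoc) at 3 days, against 13.6% and 6.46% of all genes. At 28 days 2 were higher (Gfap and Aqp4), against 10.6%. The 4 summed to 6297 against 5281 CPM and 7646 against 4517 CPM. The 6 neuronal genes summed to 929 against 1115 CPM and 614 against 962 CPM. At least 1.5-fold lower were 0 and 3 of them, against 6.46% and 9.77% of all genes. The 3 endothelial genes summed to 184 against 155 CPM and 148 against 120 CPM with none past 1.5-fold, the 5 meningeal fibroblast genes to 80.6 against 114 CPM and 141 against 91.3 CPM, and the 4 choroid plexus genes to 453 against 283 CPM and 859 against 497 CPM. In bulk sums over bins, fewer oligodendrocytes, less of these transcripts per cell and more RNA of other cells cannot be told apart, and the part of these cell types in the myelin results was not tested.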

How the data were processed

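Visium HD was run on 1 coronal section of 10 µm per group, from fixed, paraffin-embedded brain. The authors deposited raw UMI counts per gene and 16 µm bin, made with Space Ranger (version 4.0.1 per the file headers, genome build mm10 per the labels) from a mouse probe set, with no normalization. Files carry barcodes, gene symbols and grid positions, and 84781 bins hold the same grid position in both sections, because a barcode encodes the position. Sequences are from the RefSeq tables of GRCm38.p6.

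The genes, lists, sides and region rules were chosen with earlier results of these data known. Bins under 100 UMIs were left out (1.93% at 3 days, 2.15% at 28 days). Shares of the placement genes were taken in windows of 3 by 3 bins. The lesion zone joined tiles of 4 by 4 bins whose share of 6 phagocyte genes (Laptm5, Cd52, Lgals3, Ctsz, Lyz2 and Cd68), smoothed over 5 by 5 tiles, exceeded that of 99% of opposite tiles, in patches of at least 25 tiles. Mirrored areas were reflected over the axis of best correlation of 10 regional genes between the sides, within 15 degrees of the array axis (mean r 0.63 and 0.67). UMIs were summed per region and compared as log2 ratios of CPM with 0.5 UMI added, with exact conditional binomial 95% intervals for single genes and exact binomial intervals for shares. Genes with at least 20 UMIs over both regions counted as tested, and 1.5-fold was the limit for calling a gene higher or lower. Likeness used genes with at least 200 UMIs in each section. Some genes of the fixed lists, and a setting that needs one, are not reported here. The interval method was tested on simulated data drawn with counting error only, which leaves out the spread between bins, blocks and animals. All 9 genes are named, beside the 5 genes most like them and list genes with large or small ratios. The alternatives are given in the closing section. Computations ran in Python 3.11.15 with scipy 1.17.1, numpy 2.4.6 and pandas 2.3.3, and plots in matplotlib 3.10.9.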

Additional observations from a re-analysis of the deposited data

Results flagged for a closer look

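The ratio of injured to opposite grey matter had opposite signs at 3 and 28 days for 6 of the 9 genes, with both counting intervals clear of 0. The log2 ratio at 28 days minus that at 3 days was -0.86 for Mobp, -0.78 for Opalin, -0.62 for Ermn, -0.59 for Mbp, -0.54 for Mag and -0.29 for Mal. With 1 section per time the difference was not tested.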

How the results depend on the processing

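The median log2 ratio of the 9 genes was recomputed under each alternative. In white matter at 3 days (-0.42) it was 0.29 per bin, -1.64 with the injured side placed by reflection, -0.17 with the top 20% of bins as white matter, -0.46 without a minimum per bin, with windows of 5 by 5 bins or with the boundary 12 bins towards the opposite side, and -0.39 with it 12 bins towards the injured side. Further alternatives, chosen after seeing the data, were placement without Trf and Car2 (-0.21) and bins outside the zone (-0.19). In white matter at 28 days (-0.31) it was -0.51 per bin, -1.65 by reflection, and -0.19 both with the top 5% and outside the zone. In grey matter, reflection gave 2.37 at 3 days (0.37) and 1.05 at 28 days (-0.16), where the value was -0.38 per bin and -0.27 outside the zone. For the lesion zone it was 1.05 per bin, 1.59 with the 95th percentile, 1.82 with the boundary moved towards the opposite side and 0.51 against the reflected zone at 3 days (1.85), and 0.34, 0.86 and 0.0218 at 28 days (1.01) for the same settings except the boundary. The causes were not tested. Reflected white matter bins held 732 UMIs at 3 days against 428 in white matter placed by its own transcripts. At 28 days the values were 434 and 218. By reflection at 3 days, Mbp was at -0.97 in the zone and -2.78 beyond 2000 µm. White matter placed by its own transcripts gave -0.69 and 0.02 in the same areas.

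Of 504 values of single genes, 469 kept their direction and 293 stayed within the main counting interval. Of those that turned, 27 belonged to results whose interval excluded 0, all given here, and 8 to Mag in white matter at 3 days and Mog at 28 days, whose intervals held 0, with Mag at 0.66 per bin and Mog in grey matter at 1.28 by reflection. In white matter per bin at 3 days Mbp (0.22), Mog (0.45), Mobp (0.29), Mal (0.0772), Cnp (0.32), Opalin (0.0831) and Ermn (0.26) turned. Cldn11 in white matter turned by reflection (-1.23 at 3 days, -1.35 at 28 days) and at 28 days per bin (-0.10), with the top 20% (-0.0347) and outside the zone (-0.0605). In grey matter, Mag at 3 days (-0.0917) and Mal at 28 days (0.0888) turned with the limit at the 25th percentile, and at 28 days Cnp (-0.13) and Cldn11 (-0.00766) turned per bin, Cnp outside the zone (-0.00902), and by reflection Mbp (0.69), Mag (1.16), Mobp (0.69), Mal (1.09), Opalin (0.84) and Ermn (1.05). In the zone at 28 days Mal turned per bin (-0.0922), and Mobp (-0.11), Mal (-0.37) and Ermn (-0.13) against the reflected zone. No paired analysis was possible because each group had 1 section. White matter bins held few UMIs, so genes with few counts such as Opalin have wide intervals.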

Other observations

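The genes that placed white matter did not move together at 3 days. In white matter of the injured and the opposite side, Trf, which encodes the iron carrier transferrin, had 8598 and 4658 CPM, a log2 ratio of 0.88, whereas Gjc3, Tspan2, Qdpr, Plekhb1 and Car2 ranged from -0.69 (Plekhb1) to -0.31 (Car2). At 28 days Trf was at -0.06. Bins were chosen by the sum of these genes, so their values describe the placement and test nothing.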
